A study of Cicer arietinum with 8 samples.

Results

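Upper glycolysis in chickpea roots was described through 6 genes of 3 enzyme steps, selected by their identifiers among the 30978 loci measured. The genes were phosphofructokinase (PFK, Ca_00673) and phosphofructokinase 4 (PFK4, Ca_08339), aldolase (Aldolase, Ca_27205), fructose-bisphosphate aldolase 1 and 2 (FBA1, Ca_15425 and FBA2, Ca_15426) and fructose 1,6-bisphosphatase (FBPase, Ca_00102). All 6 identifiers were found, each alone in its locus. Root RNA came from the drought-tolerant genotype ICC4958 (DT) and the drought-sensitive genotype ICC1882 (DS) of Cicer arietinum, under drought (D) or control conditions (C). Each of the 4 conditions, DT(D), DT(C), DS(D) and DS(C), had 2 libraries. In the sample labels, plants for DT(D) and DS(D) lost their water supply at 16 days of age and went 11 days without it, whereas DT(C) and DS(C) plants were watered on alternate days, and all roots were taken at 27 days. The methods of the study give an earlier start and a longer stress. Each drought class is represented by a single genotype, and plants grew in pots in a growth chamber. No root marker was checked, since the loci carry identifiers without gene names.

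Expression is given in FPKM, by definition the fragments on a locus per kilobase of transcript, scaled to mapped fragments. The library normalization behind these values is not given in the sources used here. The authors give 1 FPKM value per locus and condition, which pools both libraries. No value therefore has a replicate error and no difference was tested, so every difference below compares 2 pooled values. A locus was taken as past the threshold at a log2 ratio of at least 1 or at most -1, with an FPKM of at least 1 in one of the conditions compared. In roots, fewer cells of a type and less RNA per cell cannot be told apart. All 6 genes were above an FPKM of 6 in every condition. The summed FPKM of all loci was highest in DS(C), and bringing all columns to one sum adds 0.47 to every log2 ratio of DS(D/C), 0.27 to those of DT(C)/DS(C), 0.03 to those of DT(D/C) and -0.17 to those of DT(D)/DS(D). In DS(D/C) the log2 ratio also went with the expression level, with a median of 0.45 among the least and -0.50 among the most expressed of 10 equal groups, against 0.03 and 0.06 in DT(D/C). The part of this trend in the ratios of highly expressed genes was not tested.

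Phosphofructokinase adds a second phosphate to fructose 6-phosphate, in the direction of glycolysis. Plants have a form that uses ATP and a form that uses pyrophosphate, and the gene names do not say which form is meant. Aldolase splits fructose 1,6-bisphosphate into a pair of triose phosphates and also works in reverse. FBPase removes the phosphate that phosphofructokinase adds, and so runs the step in the direction of gluconeogenesis and sucrose synthesis. Plants hold aldolase and FBPase in the cytosol and in plastids, and the names do not give the compartment.

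FBA1, FBA2 and FBPase were among the genes for which the study designed RT-qPCR primers. The study selected these genes for their expression in the same RNA-seq data. The primers are shown because FBA1 and FBA2 were given separate pairs, and they are written 5′ to 3′ with no base marked. The RT-qPCR values themselves were not used here.
FBA1 forward: gtctcgttcagctgcatactacca
FBA1 reverse: tcacaacagtacgccatttgg
FBA2 forward: caatgctacatgcggaaagc
FBA2 reverse: tggcgattaacttcggtgttc
FBPase forward: actgcgtggcaagtacattgtt
FBPase reverse: aacaccgcaatcaatgtttgag
The primers were 20 to 24 bases long, and 40.9% to 50% of their bases were G or C. None of the 4 aldolase primers had the sequence of another.

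PFK was the more abundant of the 2 phosphofructokinases in every condition. PFK had 82.3 FPKM in DT(D) and 71.0 in DT(C), against 36.9 in DS(D) and 70.1 in DS(C). The value of DS(D) stood apart as the lowest, while DT(C) and DS(C) were nearly equal, with a log2 ratio of 0.02 that was -0.07 once ratios were centred on their median. On the log2 scale, DT(D/C) stood at 0.21 for PFK and DS(D/C) at -0.93, and PFK was thus within the threshold under drought in both genotypes. In DT(D)/DS(D), PFK had a log2 ratio of 1.16, above 95.3% of all loci with a ratio. The ratio of PFK in DT(D)/DS(D) was 0.99 with columns brought to one sum and 0.98 with ratios centred within groups of expression, both just short of the threshold.

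PFK4 was higher under drought in both genotypes. PFK4 had 14.2 FPKM in DT(D) and 9.05 in DT(C), against 10.1 in DS(D) and 6.24 in DS(C). The order of the conditions thus differed from that of PFK, with DS(C) lowest. On the log2 scale, DT(D/C) stood at 0.65 and DS(D/C) at 0.70, both within the threshold and -0.05 apart. With columns brought to one sum, DS(D/C) was 1.16, past the threshold, and the genotypes were -0.48 apart. PFK exceeded PFK4 by a factor of 5.79 in DT(D) and 7.84 in DT(C), and by 3.65 in DS(D) and 11.2 in DS(C). PFK4 therefore held 14.7% of the summed FPKM of both genes in DT(D) and 11.3% in DT(C), against 21.5% in DS(D) and 8.17% in DS(C). The shift between the isoforms under drought was wider in DS, where PFK was lower and PFK4 higher. Their groups of expression had DS(D/C) medians of -0.24 for PFK and 0.17 for PFK4. With ratios centred within these groups, DS(D/C) was -0.69 for PFK and 0.53 for PFK4, against 0.16 and 0.65 in DT(D/C).

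**Figure D1:**
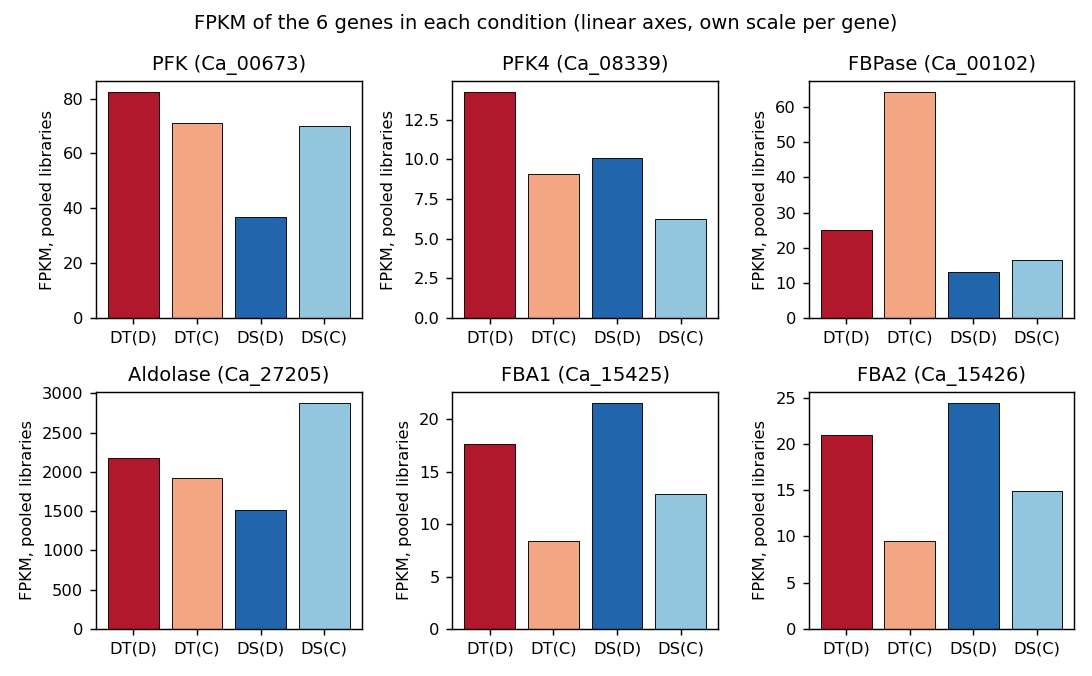
FPKM of each of the 6 genes (vertical axis, linear, starting at 0, with its own scale for each gene) in DT(D), DT(C), DS(D) and DS(C), each bar being the authors' pooled value of 2 libraries, with no error. PFK is lowest in DS(D) at 36.9 FPKM, FBPase is highest in DT(C) at 64.2 FPKM, and FBA1 and FBA2 show the same order of conditions.

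The study names a further pair of phosphofructokinase loci, Ca_14808 (also PFK) and PFK2 (Ca_18157), which put the isoforms in context. Ca_14808 was the most abundant phosphofructokinase in every condition, with 115 FPKM in DT(D) and 135 in DT(C), against 129 in DS(D) and 209 in DS(C). PFK2 was a low-abundance gene, with 13.8 FPKM in DT(D) and 7.14 in DT(C), against 17.9 in DS(D) and 9.47 in DS(C). Both abundant loci, PFK and Ca_14808, had less FPKM in DS(D) than in DS(C), and both scarce loci, PFK4 and PFK2, were higher under drought in both genotypes. For PFK2, DT(D/C) was 0.95 and DS(D/C) was 0.92 on the log2 scale, close to the threshold. With columns brought to one sum, DT(D/C) of PFK2 was 0.98 and DS(D/C) was 1.38, past the threshold. The summed FPKM of all 4 loci was 226 in DT(D) and 222 in DT(C), against 194 in DS(D) and 295 in DS(C). PFK held 36.5% of this sum in DT(D) and 31.9% in DT(C), against 19.0% in DS(D) and 23.7% in DS(C).

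Aldolase (Ca_27205) was among the most abundant transcripts of the root. Aldolase had 2177 FPKM in DT(D) and 1927 in DT(C), against 1513 in DS(D) and 2876 in DS(C). By FPKM, it ranked between the 49th and the 75th of all loci over the 4 conditions. The highest value was that of DS(C) and the lowest that of DS(D), so the genotypes differed in the direction of their drought values. On the log2 scale, DT(D/C) stood at 0.18 for Aldolase and DS(D/C) at -0.93, or -0.46 with columns brought to one sum. Among loci in the highest group of expression, where the median in DS(D/C) was -0.50, 19.0% had a lower ratio than Aldolase. Aldolase had log2 ratios of -0.58 in DT(C)/DS(C) and 0.53 in DT(D)/DS(D), and thus was within the threshold in every comparison.

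FBA1 and FBA2 carry consecutive locus numbers and were close to each other in level and in pattern. FBA1 had 17.6 FPKM in DT(D) and 8.43 in DT(C), against 21.6 in DS(D) and 12.9 in DS(C). FBA2 had 21.0 FPKM in DT(D) and 9.54 in DT(C), against 24.4 in DS(D) and 14.9 in DS(C). Both genes were higher under drought in both genotypes, and both were lower in DT than in DS whatever the water. In DT(D/C), FBA1 had a log2 ratio of 1.06 and FBA2 of 1.14, which put both past the threshold and above 95.8% and 96.4% of loci. In DS(D/C), the log2 ratios were 0.74 for FBA1 and 0.71 for FBA2, within the threshold. With a pseudocount of 1, FBA1 in DT(D/C) was at 0.98, short of the threshold, and with columns brought to one sum both genes passed it in DS(D/C), at 1.21 for FBA1 and 1.17 for FBA2.

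FBA2 exceeded FBA1 by a factor of 1.19 in DT(D) and 1.13 in DT(C), and by 1.13 in DS(D) and 1.16 in DS(C). The ratio of the pair thus varied by a factor of 1.05 over conditions in which each gene varied by a factor of 2.55 or 2.56. Reads of 49 nt from near-identical copies can be divided between loci when values are estimated, and whether reads were shared between FBA1 and FBA2 was not tested. The root mean square difference of their centred log2(FPKM + 1) profiles was 0.03, against a median of 0.38 over 15871 pairs of expressed loci with consecutive numbers. Of those pairs, 0.164% were closer than FBA1 and FBA2.

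Set against Aldolase, both FBA1 and FBA2 held little of the aldolase FPKM, which says nothing of enzyme amount or activity. Aldolase exceeded FBA1 by a factor of 124 in DT(D) and 228 in DT(C), and by 70.2 in DS(D) and 224 in DS(C). FBA1 and FBA2 held 0.795% and 0.947% of the aldolase FPKM of the 3 genes in DT(D), against 0.434% and 0.490% in DT(C). In DS(D) their shares were 1.38% and 1.57%, against 0.443% and 0.515% in DS(C). The summed FPKM of the 3 genes therefore followed Aldolase, at 0.19 on the log2 scale for DT(D/C) and -0.90 for DS(D/C). The study names 1 more aldolase, Ca_05550, from its protein data, with 348 FPKM in DT(D) and 331 in DT(C), against 299 in DS(D) and 454 in DS(C). Ca_05550 had the same order of conditions as Aldolase, and a smaller log2 ratio of -0.60 in DS(D/C).

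**Figure D2:**
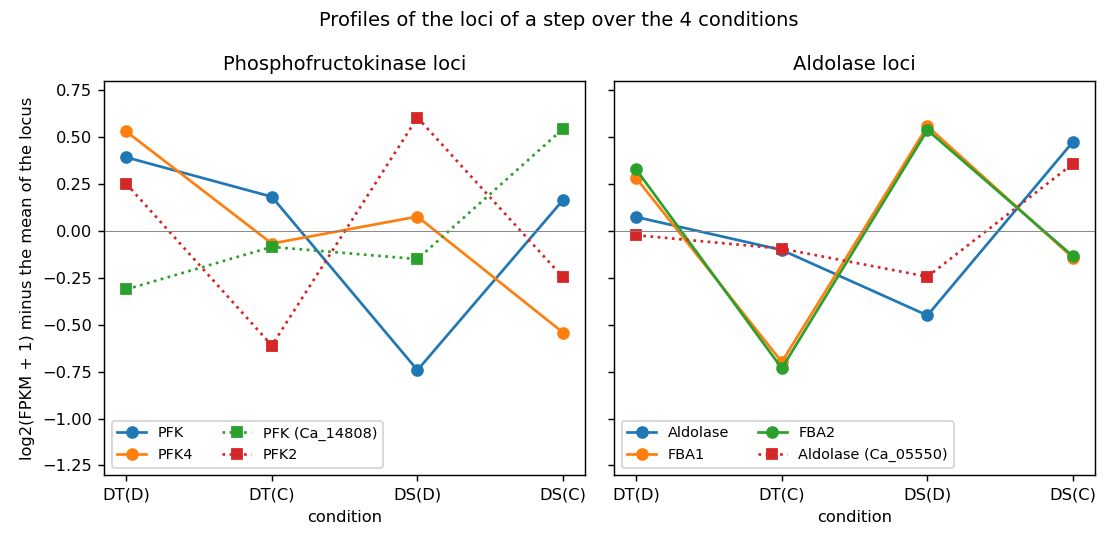
Profiles of the phosphofructokinase loci (left) and aldolase loci (right) over DT(D), DT(C), DS(D) and DS(C), as log2(FPKM + 1) minus the mean of the locus, from 1 pooled value per condition. Solid lines with circles are the 6 genes without FBPase, and dotted lines with squares are the other loci that the study names for the step. FBA1 and FBA2 nearly coincide and oppose Aldolase in DS(D), where Aldolase has its lowest value of 1513 FPKM.

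FBPase showed the widest range of the 6 genes, with a factor of 4.85 between its highest and lowest values. FBPase had 24.97 FPKM in DT(D) and 64.2 in DT(C), against 13.2 in DS(D) and 16.5 in DS(C). The value of DT(C) stood apart from the other conditions, and both DT values were above both DS values. In DT(D/C), FBPase stood at -1.36 on the log2 scale, below 94.0% of loci, and the DS(D/C) value was -0.32. In DT(C)/DS(C), FBPase had a log2 ratio of 1.96, above 97.5% of all loci with a ratio and above 99.6% of loci in its group of expression. In DT(D)/DS(D) its log2 ratio was 0.91, within the threshold. With columns brought to one sum, its ratio in DS(D/C) was 0.15, so the direction in DS was not settled, whereas in DT(D/C) it was -1.33.

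PFK and FBPase are named for opposite directions of one step, though the names give neither the form of PFK nor the compartment of FBPase. The FPKM of PFK over that of FBPase was 3.29 in DT(D) and 1.11 in DT(C), against 2.79 in DS(D) and 4.25 in DS(C). PFK and FBPase were thus at nearly equal FPKM in DT(C) alone of the 4 conditions. DT(D) thus exceeded DT(C) in this ratio, and DS(D) was below DS(C). PFK4 stayed below FBPase in every condition, with a ratio of 0.569 in DT(D) and 0.141 in DT(C), against 0.763 in DS(D) and 0.377 in DS(C). For Ca_14808, the ratio to FBPase was 4.62 in DT(D) and 2.103 in DT(C), against 9.74 in DS(D) and 12.7 in DS(C). Within a condition, these ratios do not depend on the scaling of the columns. They compare transcript levels per length and say nothing of enzyme activity.

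**Figure D3:**
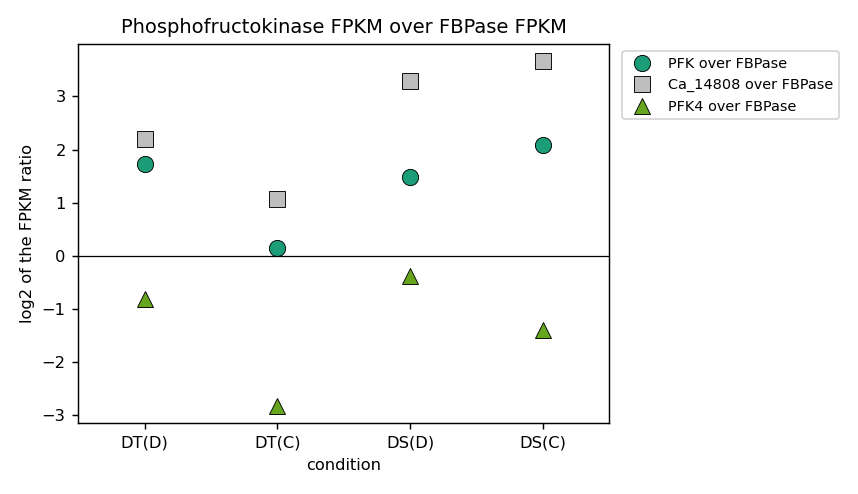
Log2 of the FPKM of PFK, of Ca_14808 and of PFK4 over the FPKM of FBPase (vertical axis) in DT(D), DT(C), DS(D) and DS(C), each point being a ratio of 2 pooled values. All 3 ratios are lowest in DT(C), where PFK over FBPase is 1.11 (0.14 on the log2 scale).

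In DT(D/C), 2 of the 6 genes, FBA1 and FBA2, were past the threshold upwards, beside 5.03% of 20326 loci, and 1, FBPase, downwards, beside 8.88%. In either direction, 13.9% of loci were past it. Of the 6 genes, 5 had a log2 ratio above 0, beside 52.4% of all loci. The median of the 6 was 0.43, against a median of 0.02 over all loci. In DS(D/C), none of the 6 was past the threshold, where 16.9% of 20093 loci were, 8.21% upwards and 8.66% downwards. Of the genes, 3 were above 0, beside 49.6% of all loci, and 3 were below. The median of the 6 was 0.19, against -0.01 over all loci. With columns brought to one sum, which adds 0.47 to the ratio of every locus, 3 of the 6, PFK4, FBA1 and FBA2, were past the threshold upwards. The share of all loci past it under that scaling is not given, and 8.21% cannot stand in for it. Their DS(D/C) ratios lay above those of 85.8% (PFK4), 87.0% (FBA1) and 86.1% (FBA2) of loci. In DT(C)/DS(C), FBPase alone was past the threshold upwards, beside 11.1% of 20231 loci, with none of the genes downwards beside 5.17% of loci and 16.3% past it in all. The median of the 6 was -0.28 there, against 0.09 over all loci, since Aldolase, FBA1 and FBA2 were lower in DT(C) than in DS(C). In DT(D)/DS(D), PFK alone was past the threshold upwards, beside 6.73% of 20310 loci, with none downwards beside 5.09% and 11.8% past it in all. The median of the 6 was 0.51, against 0.10 over all loci. These comparisons share conditions and are not independent of each other.

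**Figure D4:**
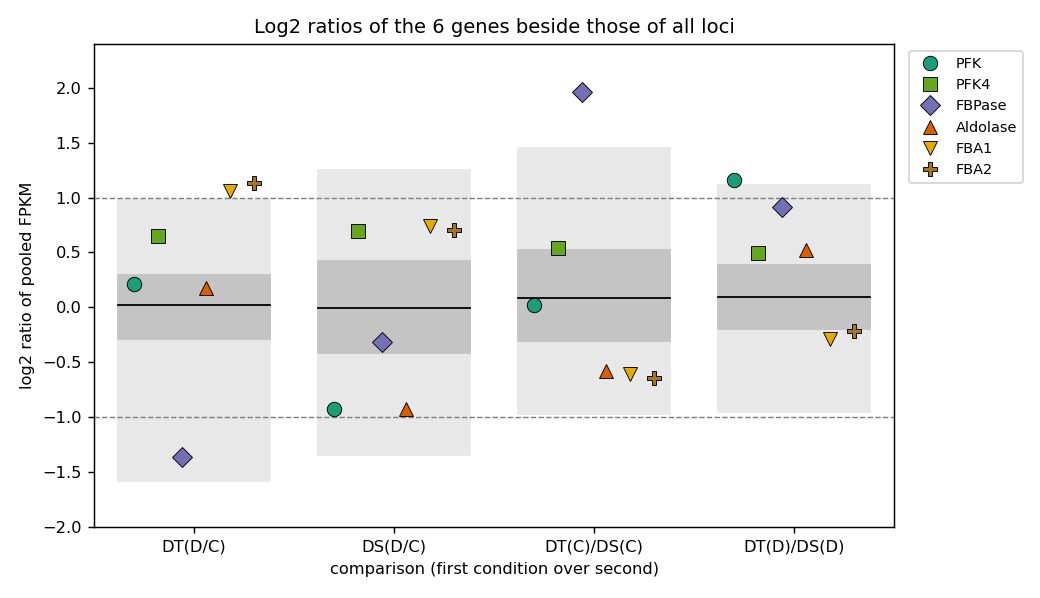
Log2 ratios of pooled FPKM (vertical axis) of the 6 genes in each of the 4 comparisons, over bands for all loci with a ratio. Light bands span the 5th to the 95th percentile, dark bands the 25th to the 75th, black lines mark the median and dashed lines the threshold. FBA1 and FBA2 (1.06 and 1.14) in DT(D/C), FBPase (1.96) in DT(C)/DS(C) and PFK (1.16) in DT(D)/DS(D) lie above their light bands.

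The drought ratios of both genotypes were set side by side to see which genes differed. The log2 ratio of DT(D/C) minus that of DS(D/C) was 1.14 for PFK, 1.10 for Aldolase and -1.04 for FBPase, and between -0.05 and 0.43 for PFK4, FBA1 and FBA2. A difference of at least 1 was found for 2 of the 6 genes, beside 8.52% of 20231 loci, and one of at most -1 for 1 gene, beside 12.0%, with 20.6% of loci past 1 in size. PFK and Aldolase were above 0 in DT(D/C) and below 0 in DS(D/C), a pattern of signs held by 24.5% of all loci. With columns brought to one sum, the differences were 0.70 for PFK, 0.67 for Aldolase and -1.48 for FBPase, and with ratios centred within groups of expression they were 0.85, 0.55 and -1.06. The difference of FBPase alone was thus past 1 in size under all 3 scalings.

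**Figure D5:**
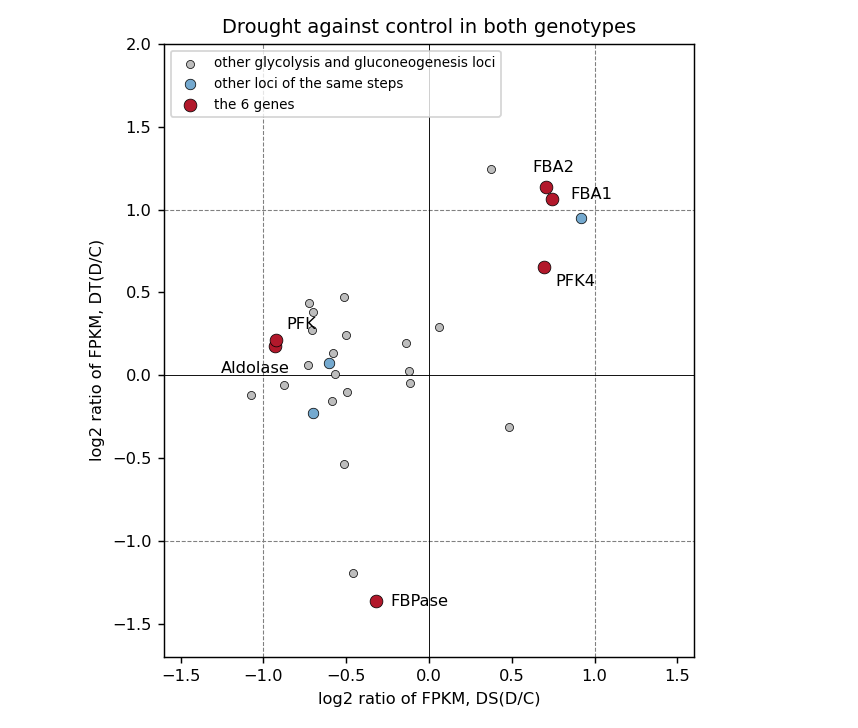
Log2 ratios of FPKM under drought in DS (horizontal axis, DS(D/C)) and in DT (vertical axis, DT(D/C)) for the 6 genes (red), the other phosphofructokinase and aldolase loci (blue) and 20 further glycolysis and gluconeogenesis loci (grey), with dashed lines at the threshold. PFK and Aldolase share nearly the same point at -0.93 on the horizontal axis, FBA1, FBA2 and PFK4 lie at the upper right, and FBPase lies at the bottom at -1.36 on the vertical axis.

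The likeness of profiles was measured as the root mean square difference of centred log2(FPKM + 1) over the 4 conditions, among 20744 other loci with an FPKM of at least 1 in any condition. With 4 values that come from the same columns, small differences are common, and the measure is a description. For FBA1, FBA2 was the second nearest of all loci, and for FBA2, FBA1 was the nearest. Ca_01608 was the other near locus of both, at 0.02 from FBA1 and 0.05 from FBA2. PFK2 was the 9th nearest locus to FBA1 and the 15th nearest to FBA2, so a phosphofructokinase and both scarce aldolases had nearly the same profile. PFK2 was by contrast only the 10526th nearest to PFK4, the other scarce phosphofructokinase.

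Aldolase and Ca_05550 differed by 0.13, and Ca_05550 was the 466th nearest locus to Aldolase. The loci nearest to Aldolase were Ca_14567 and Ca_13766, and 243 loci lay within 0.1 of it. PFK and Aldolase, which work in consecutive steps, differed by 0.30. The FPKM of Aldolase over that of PFK was 26.5 in DT(D) and 27.1 in DT(C), against 41.0 in DS(D) and 41.0 in DS(C). The ratio of these genes thus hardly moved with the water supply and differed between the genotypes. Nearest to PFK were Ca_12460, at 0.01, and a locus without an identifier, and nearest to PFK4 were Ca_14817 and Ca_09742. For FBPase, 1 locus lay within 0.1, which carries no identifier, whereas 110 loci had a Pearson correlation of at least 0.99 with it, against 79 to 178 for the other 5 genes.

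The rest of the pathway was taken from the glycolysis and gluconeogenesis genes and proteins that the study names, 21 loci outside the phosphofructokinase, aldolase and FBPase steps, of which 20 were tested. The study chose its genes on these samples, so their directions are not independent evidence. GAPDHC1 (Ca_08775), a glyceraldehyde 3-phosphate dehydrogenase, is listed at 0 in all conditions and was the locus left out. In DT(D/C), 1 of the 20 was past the threshold upwards, beside 5.03% of all loci, and 1 downwards, beside 8.88%. PEPCK1 (Ca_11524), the phosphoenolpyruvate carboxykinase that draws oxaloacetate into gluconeogenesis, had 253 FPKM in DT(D) and 107 in DT(C), against 88.7 in DS(D) and 68.5 in DS(C). On the log2 scale, DT(D/C) stood at 1.25 for PEPCK1, opposite in direction to FBPase, and DT(D)/DS(D) at 1.51. PGAM (Ca_09253), a phosphoglycerate mutase whose locus also covers Ca_09254, had 54.8 FPKM in DT(D) and 125 in DT(C), against 105 in DS(D) and 145 in DS(C), and its DT(D/C) value was -1.19 on the log2 scale.

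In DS(D/C), 17 of the 20 pathway loci were below 0, beside 50.4% of all loci, with a median of -0.52. Most of the 20 lay in the 9th or 10th of the 10 groups of expression. All loci of those groups had medians of -0.24 and -0.50, so 50.4% is not a like background. Of the 20, 1 was past the threshold, the pyruvate kinase Ca_12631, at -1.08, beside 8.66% of all loci downwards. With columns brought to one sum, Ca_12631 was at -0.61 and the median was -0.05, so the direction of the pathway in DS rested on the scaling. All 9 tested loci between triose phosphate and phosphoenolpyruvate were below 0 in DS(D/C), from -0.88 to -0.46, and PFK and Aldolase, at -0.93, were just below this range. The triose phosphate isomerase Ca_02616, which acts on the products of aldolase, had 1732 FPKM in DT(D) and 1280 in DT(C), against 1063 in DS(D) and 1754 in DS(C). Its order of conditions was that of Aldolase, an order that other loci of the pathway also had. Its difference between the genotypes was 1.16. That difference was 0.72 with columns brought to one sum and 0.60 with ratios centred within groups of expression. Of the 5 loci that bring hexoses into the pathway, none was past the threshold under drought in either genotype. Over all loci, 13.9% were past it under drought for the tolerant genotype and 16.9% for the sensitive one. In DT(C)/DS(C), 1 of the 5, the galactose mutarotase-like Ca_15348, was past it at a log2 ratio of 1.04, beside 16.3% of all loci. Counts among 5 loci cannot be told apart from such shares. Ca_15348 was at 0.90 with a pseudocount of 1, at 0.95 with ratios centred on their median and at 0.82 with ratios centred within groups of expression, all short of the threshold.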

How the data were processed

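Root RNA of 8 libraries, 2 per condition, was sequenced by the authors as 49-nt single-end reads. Reads were filtered with NGS QC Toolkit, mapped to the kabuli chickpea genome with TopHat2 2.1.1 and assembled with Cufflinks 2.2.1 and Cuffmerge. The deposited values are FPKM made by the authors, 1 per merged locus and condition. The library normalization used by Cuffdiff is not given in the sources used here. Groups came from genotype and treatment labels. The depth behind an FPKM value is unknown: low values did not fall on common steps (10 of 571 loci under 0.2 shared one DT(D/C) ratio), so no interval is given.

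Log2 ratios were taken without a pseudocount, over loci that reached an FPKM of 1 in either condition compared. Alternatives were other pseudocounts, filters, scalings and a log2 threshold of 2. The 6 genes, the pathway list and the settings were chosen with earlier results of these data known. Besides the 6 genes, the text names the other loci of their steps, pathway loci past the threshold in any comparison, and the 2 loci nearest to each profile, with neighbouring loci as counts. TPI Ca_02616, GAPDHC1, Ca_15428, Ca_00099 and Ca_00100 lie outside this rule and were chosen after their values were seen. No table at hand pairs the identifiers with gene symbols, so names are those of the study. Calculations used Python 3.11.15, numpy 2.4.6 and pandas 2.3.3 and were tested on simulated data.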

Additional observations from a re-analysis of the deposited data

Results flagged for a closer look

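PFK and Aldolase had pooled values that moved in opposite directions under drought in the 2 genotypes. For PFK, DT(D/C) minus DS(D/C) was 1.14 on the log2 scale, from log2 ratios of 0.21 and -0.93. For Aldolase, the difference was 1.10, from log2 ratios of 0.18 and -0.93. With columns brought to one sum, the differences were 0.70 for PFK and 0.67 for Aldolase. They were 0.85 and 0.55 with ratios centred within groups of expression, so all were short of 1. Signs above 0 in DT(D/C) and below 0 in DS(D/C) were held by 24.5% of all loci. That share is not a like background, since the medians of their groups of expression had the same signs. Neither difference was tested, since 1 pooled value per condition gives no spread between libraries.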

How the results depend on the processing

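No paired analysis was possible because the deposited columns pool both libraries of a condition, and for the same reason no library could be left out. A log2 ratio was taken as unchanged within 0.1 and a count within a factor of 1.5. Of 168 alternative log2 ratios of the 6 genes, 139 stayed within 0.1 and none past the threshold turned its direction. The other 29 came from columns brought to one sum (18) and from centring within groups of expression (11). Much of this count was fixed in advance and does not measure robustness. All 6 genes were above the FPKM filter in every condition, so the filter settings could not change a ratio. Centring on the median shifted all ratios of a comparison by less than 0.1. One sum likewise adds a single constant to all ratios of a comparison. Columns brought to one sum gave 3 genes past the threshold in DS(D/C) where there were 0, with PFK4 at 1.16 beside FBA1 and FBA2, 0 in place of 1 in DT(D)/DS(D), and 1 in place of 3 genes differing by 1 or more between the genotypes. Centring within groups gave 0 in DT(D)/DS(D) and 1 for the difference between the genotypes. The share of all loci past the threshold is not given under these settings. At a log2 threshold of 2, 0 genes were past it in DT(D/C), in DT(C)/DS(C) and in DT(D)/DS(D). With all named loci of a step, PFK held 36.5%, 31.9%, 19.0% and 23.7% of the phosphofructokinase FPKM in DT(D), DT(C), DS(D) and DS(C), in place of 85.3%, 88.7%, 78.5% and 91.8% among the 2 genes. Aldolase held 84.9%, 84.6%, 81.4% and 85.6% in place of 98.3%, 99.1%, 97.1% and 99.04%. By Pearson correlation in place of the distance, 1 of the 2 nearest loci of PFK was kept and none of the 2 of the other 5 genes. What sets the sums of the columns apart was not tested.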

Other observations

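The loci with the nearest numbers to each of the 6 genes, 3 on each side, were also examined. Of the 5 other loci beside FBA1 and the 5 beside FBA2, which overlap, none was past the threshold under drought in either genotype. Their log2 ratios in DT(D/C) ran from -0.15 to 0.56. Over all loci, 13.9% were past the threshold under drought for the tolerant genotype and 16.9% for the sensitive one. Near both genes, Ca_15428 was past the threshold in DT(D)/DS(D), with 210.2 FPKM in DT(D) and 202.4 in DT(C), against 91.5 in DS(D) and 168 in DS(C). On the log2 scale its DT(D)/DS(D) was 1.20. Ca_15428 was thus lowest in DS(D), as PFK was. Around FBPase, Ca_00099 was past the threshold in the same direction in DT(D/C), at -3.35, with 0.148 FPKM in DT(D) and 1.51 in DT(C). Ca_00099 was also past it in DS(D/C), at -1.12, where FBPase was not, with 0.972 FPKM in DS(D) and 2.11 in DS(C). Ca_00100, also beside FBPase, was past the threshold at -1.11 in DT(C)/DS(C) and at -1.96 in DT(D)/DS(D), opposite in direction to FBPase. It had 0.657 FPKM in DT(D) and 1.13 in DT(C), against 2.56 in DS(D) and 2.43 in DS(C). Both Ca_00099 and Ca_00100 were thus near the FPKM filter of 1, and their ratios under other settings are not given. Of the 4 loci measured beside PFK4, 1 was past the threshold downwards in each drought comparison, and of the 4 beside PFK, none was. Drought counts from so few neighbours cannot be told apart from the shares of all loci given above. Around Aldolase, 5 of the 6 loci were under an FPKM of 1 in every condition, and 4 of them are listed at 0 in all.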
